A study of Mus musculus with 32 samples.

Results

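The respiratory chain genes were described as a module of 85 of the 23154 genes in the expression tables of single cells from organs of mouse embryos. Members were chosen by symbol alone: names that start with *Ndufa*, *Ndufb*, *Ndufc*, *Ndufs* or *Ndufv* and a digit, *Sdha* to *Sdhd*, names that start with *Uqcr*, *Cyc1*, the *Cox4* to *Cox8* names and names that start with *Atp5*. By name, 37 belong to complex I, 4 to complex II, 9 to complex III, 18 to complex IV and 17 to complex V. The rule itself uses no measured value. The rule also takes in *Cox7a2l*, *Atp5s* and *Atp5sl*, which are not classical subunits, and *Ndufa4*, which is named for complex I but is now assigned to complex IV, and it leaves out *Ndufab1*.

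The cells came from 7 untreated C57BL/6J embryos with no genetic change in their labels: 3 were of E9.5, 2 of E10.5 and 2 of E11.5. The organs were heart, liver, lung, intestine, skin, somite, forebrain and hindbrain. The paper describes trypsinised organs and cells picked by mouth pipette, and names no sort. The protocol in the sample labels instead describes gonadal cells and a sort, and the paper was followed here. How well the picked cells stand for each organ was not tested. Of 1916 cells, the 1819 that the study kept were used, and 14 of these whose columns repeated another column were counted once, which left 1805 cells. The study's 4 major groups were taken for 1801 cells: 246 hematopoietic, 382 neuronal, 304 epithelial and 869 mesoderm-derived cells. E9.5 embryos 1 and 2 are labelled HiSeq 2500 and the other samples HiSeq 4000. All heart, forebrain and hindbrain cells of E9.5 came from embryos 1 and 2, so in these organs the day and the sequencer cannot be told apart. E9.5 embryo 1 gave no lung or skin cells, lung and liver of E9.5 embryo 3 were pooled in 1 sample and its skin, intestine and somite in another, and E9.5 embryo 2 is labelled female and the others male. At E10.5 and E11.5 each organ was deposited as 1 sample that holds the cells of both embryos of that day. A difference between these days can therefore not be told apart from a difference between samples. The embryo was the replicate throughout, since the cells of an embryo share an animal.

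The electron transport chain lies in the inner mitochondrial membrane. Complexes I and II pass electrons from NADH and succinate to ubiquinone, complex III passes them on to cytochrome c, and complex IV hands them to oxygen. Complex V, the ATP synthase, uses the proton gradient built by complexes I, III and IV. Cardiac muscle is known for its dense mitochondria and, in the adult, for its reliance on oxidative metabolism, and several complex IV subunits exist as a form of heart and skeletal muscle and a form used more widely.

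The median depth of a cell was 306271 UMIs (range 20326 to 2524348), and by embryo it ran from 187427 UMIs in E11.5 embryo 1 to 928653 in E9.5 embryo 2. Levels are means over the cells of an embryo of log2(TPM/10 + 1). What the authors call TPM is a gene's UMI count per 1000000 UMIs in that cell. Each molecule was counted once, at its 3′ end, so no gene length enters it and levels of different genes can be set side by side.

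Most members were abundant in every organ. The mean over organs was highest for *Atp5b*, the catalytic beta subunit of complex V, at 7.09 on the log2 scale, with a UMI in 99.9% of the cells. *Cox4i1*, the common form of subunit IV of complex IV, followed at 7.07 and had a UMI in every cell. The leading members of the other complexes were *Ndufa4* at 6.66, *Uqcr10* of complex III at 6.16 and *Sdhb*, the iron-sulfur subunit of complex II, at 5.37. The low end held the tissue-restricted forms *Cox6b2* (1.57), *Cox7a1* (0.55), *Cox6a2* (0.46), *Cox4i2* (0.31), *Ndufa4l2* (0.11), *Cox8b* (0.080) and *Cox7b2* (0.0077).

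Of the 85 members, 83 passed the filter of an expressed gene and were tested. *Cox8c* was listed at 0 in every cell. *Ndufs5* had 1 UMI in 1 of 1805 cells, while a near-identical gene, *BC002163*, had 22622 UMIs in 1681 cells, so the reads of these genes may have been assigned to either and neither value is read as a level of *Ndufs5*.

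The respiratory chain genes took a larger part of the UMIs of heart cells than of cells of the other organs. In heart the members held 5.66% and 5.49% of the UMIs of a cell in E9.5 embryos 1 and 2, 5.38% and 6.02% in those of E10.5, and 6.77% and 8.14% in those of E11.5. The mean was 6.24% ± 1.06 (SD, n = 6 embryos). Liver followed with 4.66% ± 0.446 (n = 7), skin with 4.50% ± 0.220 (n = 6) and lung with 4.30% ± 0.301 (n = 6). Somite (4.09%), forebrain (4.07%), hindbrain (4.06%) and intestine (3.91%) had SDs of 0.264 to 0.317. The lowest heart embryo, at 5.376%, lay just above the highest liver embryo, at 5.372%, and clear of every other organ, whereas the ranges of the 7 other organs overlapped with those of their neighbours in this order. This share is a sum over the members and was given no test.

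**Figure D1:**
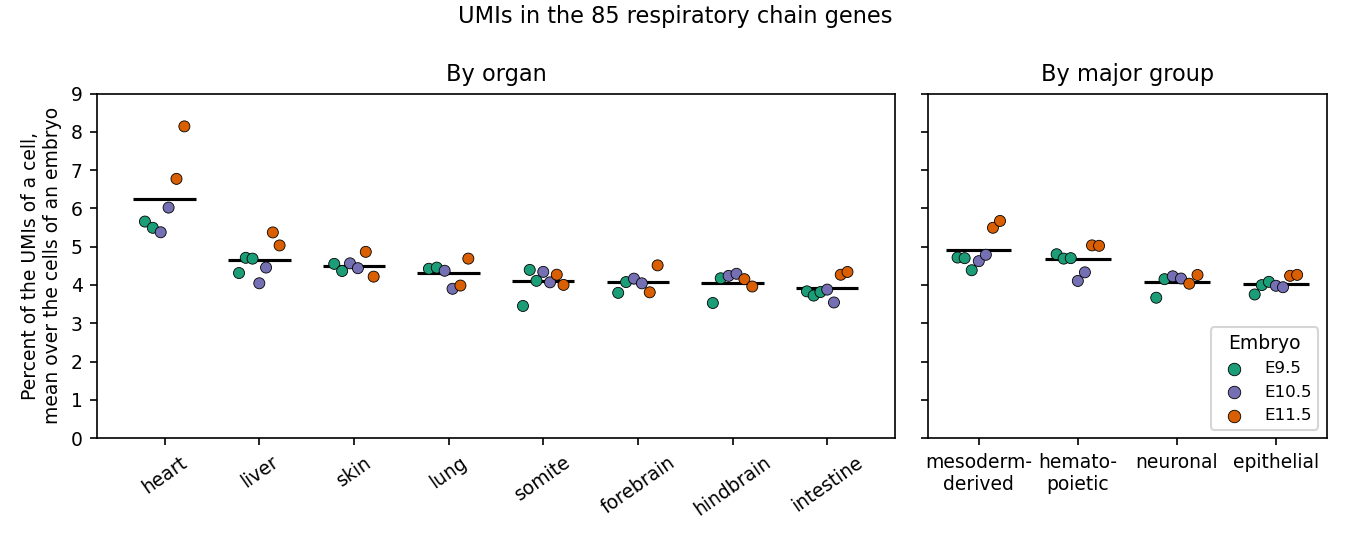
Percent of the UMIs of a cell that fall in the 85 respiratory chain genes, as the mean over the cells of each embryo, by organ (left) and by major group (right, MC mesoderm-derived, HC hematopoietic, NC neuronal, EC epithelial). Each point is an embryo, coloured by day, and the bar is the mean: heart stood at 5.38% to 8.14% and every other organ at or below 5.37%.

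Within mesoderm-derived cells the heart stood apart in the same way. Heart cells had 5.71% and 5.52% at E9.5, 5.57% and 6.19% at E10.5 and 7.06% and 8.35% at E11.5, a mean of 6.40% ± 1.12. The highest embryo of any other organ was a skin sample at 5.19%, and the means elsewhere were 4.72% in skin, 4.60% in liver, 4.37% in lung, 4.14% in intestine and 4.07% in somite. Complex I made up 1.94% of the UMIs of heart mesoderm-derived cells, complex V 1.90%, complex IV 1.65%, complex III 0.736% and complex II 0.172%. For complexes III, IV and V the heart embryos lay above all embryos of the other organs. For complexes I and II the ranges overlapped, with heart from 1.66% to 2.47% against up to 1.83% in skin for complex I.

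Across the genes, heart was compared with the mean of the other 7 organs by limma on embryo means, with Benjamini-Hochberg adjustment over 17427 genes and an adjusted p under 0.05 as the threshold. Of the 83 members, 51 were higher in heart and 0 were lower, whereas 8.73% of all genes tested were higher and 11.2% lower. At an unadjusted p under 0.05, 59 members passed, and 79 of the 83 differences were above 0. The median difference of the members was 0.40 on the log2 scale and that of all genes −0.034. Within the embryos sequenced on HiSeq 4000, 52 members were higher and 0 lower. With hematopoietic cells left out, 51 were higher. The shares of all genes at an unadjusted p and in these alternatives are not given here.

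All 5 complexes took part. In complex III, 8 of 9 members were higher (median difference 0.52). In complex V, 13 of 17 were higher (0.45), in complex II 3 of 4 (0.48), in complex IV 10 of 17 (0.39) and in complex I 17 of 36 (0.34). Differences of at least 1 on the log2 scale with an adjusted p under 0.05 were seen for *Cox6a2* and *Cox7a1* alone, 2 of 83 members against 2.21% of all genes. The remaining increases were below 0.80.

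Of the ubiquitous subunits, *Ndufa5*, an accessory subunit of complex I, had the largest difference at 0.79 (SE 0.14, adjusted p = 2.824e-05 by limma), and it was higher in heart in all 6 embryos with heart cells, by 0.53 to 1.18. *Atp5g1*, which encodes the c subunit of the ATP synthase rotor, was higher by 0.78 (SE 0.15, adjusted p = 7.622e-05). *Ndufv3* of complex I was higher by 0.73, *Uqcr10* by 0.72, *Cox7b* of complex IV by 0.71 and *Ndufb2* of complex I by 0.70. *Sdhb* was higher by 0.61 and *Atp5b* by 0.36 (adjusted p = 0.005777), each in 6 of 6 embryos. Several abundant members were not called: the difference of *Cox4i1* was 0.13 (adjusted p = 0.1837), that of *Cox6a1* 0.11 (adjusted p = 0.5049) and that of *Ndufa4* 0.25 (adjusted p = 0.09609), whereas *Cox6b1* (0.55) and *Cox8a* (0.67), at similar mean levels, were called. The 4 members below 0, none of them past the threshold, were *Cox6b2* (−0.37), *Ndufa7* (−0.22), *Ndufa4l2* (−0.057) and *Cox7b2* (−0.0020).

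**Figure D2:**
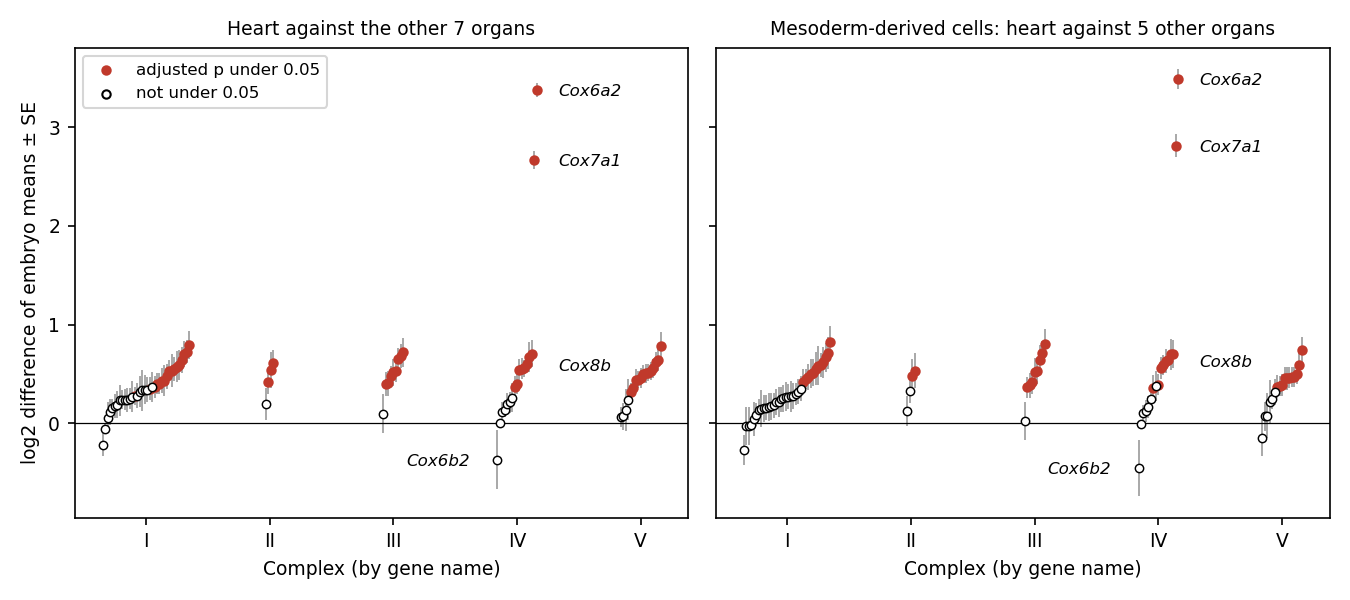
Log2 difference ± SE of each of 83 respiratory chain genes between heart and the mean of the other organs, over all cells (left) and over mesoderm-derived cells (right), grouped by complex on the x axis. Filled points have an adjusted p under 0.05: 51 members on the left and 43 on the right, all above 0, with *Cox6a2* and *Cox7a1* far above the rest.

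Organs differ in their mix of cell groups, so the comparison was repeated on mesoderm-derived cells, with heart against the mean of intestine, liver, lung, skin and somite. Here 43 of 83 members were higher and 0 lower, against 8.45% of all genes higher and 10.2% lower, and these 43 were all among the 51. The median of the members was 0.37 and that of all genes −0.038. By complex, 12 of 36 members of complex I were higher, 2 of 4 of complex II, 8 of 9 of complex III, 10 of 17 of complex IV and 11 of 17 of complex V. Within HiSeq 4000 embryos the count was 41, and without liver 46. A difference of at least 1 was again limited to 2 members, *Cox6a2* and *Cox7a1*, against 2.88% of all genes.

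The spread behind these calls can be seen from *Uqcrfs1*, the Rieske iron-sulfur protein of complex III. Its level in heart mesoderm-derived cells was 5.12 and 5.52 at E9.5, 5.35 and 5.59 at E10.5 and 5.58 and 6.14 at E11.5, and the means of the other organs ran from 4.36 in lung to 4.95 in liver. The lowest heart embryo lay just under the highest skin embryo (5.15), and all other heart embryos lay above every embryo elsewhere. The difference was 0.80 (SE 0.15, adjusted p = 0.0001068 by limma). *Ndufv3* stood at 5.24, 5.27, 5.24, 5.31, 5.93 and 6.09 in the same embryos against at most 5.40 elsewhere, in a lung sample, and differed by 0.82 (SE 0.17, adjusted p = 0.0003943). *Atp5g1* differed by 0.74, *Ndufa5* by 0.71, *Uqcrq* of complex III by 0.71, *Cox7b* by 0.70, *Cox8a* by 0.70 and *Uqcr10* by 0.64. *Sdhb* (0.48, adjusted p = 0.04121), *Cox7a2* (0.36, adjusted p = 0.0405) and *Atp5b* (0.37, adjusted p = 0.02364) passed with less room. *Cox6a1* (0.12), *Cox4i1* (0.11) and *Ndufa4* (0.087) did not pass.

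Of all members, *Cox6a2* and *Cox7a1* differed most between heart and the other organs. *Cox6a2*, *Cox7a1* and *Cox8b* encode the heart and skeletal muscle forms of subunits VIa, VIIa and VIII, and *Cox6a1*, *Cox7a2* and *Cox8a* their widely expressed counterparts. In GENCODE M21 on GRCm38 all 3 muscle forms lie on chromosome 7: *Cox6a2* at chr7:128205435-128206387 on the minus strand, *Cox7a1* at chr7:30184144-30186078 on the plus strand and *Cox8b* at chr7:140898945-140900446 on the minus strand. *Cox7a2* lies at chr9:79755361-79759878, *Cox6a1* at chr5:115345642-115348981 and *Cox8a* at chr19:7215153-7217616, all on the minus strand.

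The reads of such a pair could be counted apart only where the sequences differ. The coding sequences of *Cox7a1* and *Cox7a2* (GENCODE M21 transcripts, 240 and 249 bases) are shown for this reason, with every base that is not identical in the alignment, or not aligned, in capitals. Of 240 aligned bases, 148 (61.7%) were identical.
Cox7a1: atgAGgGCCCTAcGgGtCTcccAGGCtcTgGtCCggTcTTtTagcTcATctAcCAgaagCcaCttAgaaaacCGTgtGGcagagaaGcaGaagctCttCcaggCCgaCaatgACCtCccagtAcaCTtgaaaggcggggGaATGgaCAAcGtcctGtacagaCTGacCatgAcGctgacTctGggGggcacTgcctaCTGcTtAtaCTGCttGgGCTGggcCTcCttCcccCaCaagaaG
Cox7a2: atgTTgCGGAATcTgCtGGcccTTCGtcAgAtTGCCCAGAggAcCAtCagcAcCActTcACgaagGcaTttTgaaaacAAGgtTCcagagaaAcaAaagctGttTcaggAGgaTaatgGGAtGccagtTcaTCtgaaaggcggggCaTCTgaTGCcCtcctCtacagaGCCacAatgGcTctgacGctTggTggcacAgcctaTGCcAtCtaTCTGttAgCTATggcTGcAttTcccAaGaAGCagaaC

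*Cox6a2* had levels of 3.69 and 2.90 at E9.5, 3.37 and 3.57 at E10.5 and 3.83 and 4.04 at E11.5 in heart mesoderm-derived cells. Its highest level in any other organ was 0.48, in somite of E11.5 embryo 2, and in intestine it did not exceed 0.020. The groups did not overlap, and the difference was 3.49 (SE 0.10, adjusted p = 8.083e-24 by limma). *Cox7a1* stood at 3.32, 3.16, 2.58, 2.58, 2.85 and 3.69 in the same embryos and at most at 0.66 elsewhere, in liver, a difference of 2.82 (SE 0.11, adjusted p = 6.649e-20). *Cox8b* was low even in heart, at 0.43, 0.57, 0.78, 0.32, 0.47 and 1.33, and was 0 in every intestine, liver and lung embryo. Its difference was 0.64 (SE 0.068, adjusted p = 5.943e-09), with heart above the highest somite embryo (0.24). With 1 added before the log, the difference of a gene at such low levels stays small.

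Counted per cell, *Cox6a2* had a UMI in 244 of 255 heart cells (95.7%, pooled over 6 embryos), *Cox7a1* in 219 (85.9%) and *Cox8b* in 70 (27.5%). In forebrain and hindbrain, which should lack the muscle form, *Cox6a2* had a UMI in 5.12% of 215 and 9.85% of 203 cells, and the shares in somite (10.4%) and liver (9.15%) were close to that level. The median depth was 310442 UMIs in heart, 224297 in forebrain, 295400 in hindbrain, 342238 in somite and 427786 in liver. *Cox8b* was detected in 9 of 211 somite cells (4.27%) and in 0 of 317 liver cells, which allows a share of cells with a UMI of up to 0.946%. This limit covers counting error only and says nothing of cells that express the gene below detection.

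The widely expressed forms remained the larger part of each pair in heart. *Cox6a2* made up 19.0% ± 5.04 (range 12.4 to 23.2) of the UMIs of *Cox6a1* and *Cox6a2* in heart mesoderm-derived cells, *Cox7a1* 13.3% ± 5.36 of its pair and *Cox8b* 0.990% of its pair. In mesoderm-derived cells of the other organs the mean shares of *Cox6a2* and *Cox7a1* did not exceed 0.263% and 1.41%. Of the counterparts, *Cox8a* and *Cox7a2* were themselves higher in heart (0.70 and 0.36 in mesoderm-derived cells), and *Cox6a1* was not called. Called members of this complex thus included both forms of 2 of the 3 pairs.

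**Figure D3:**
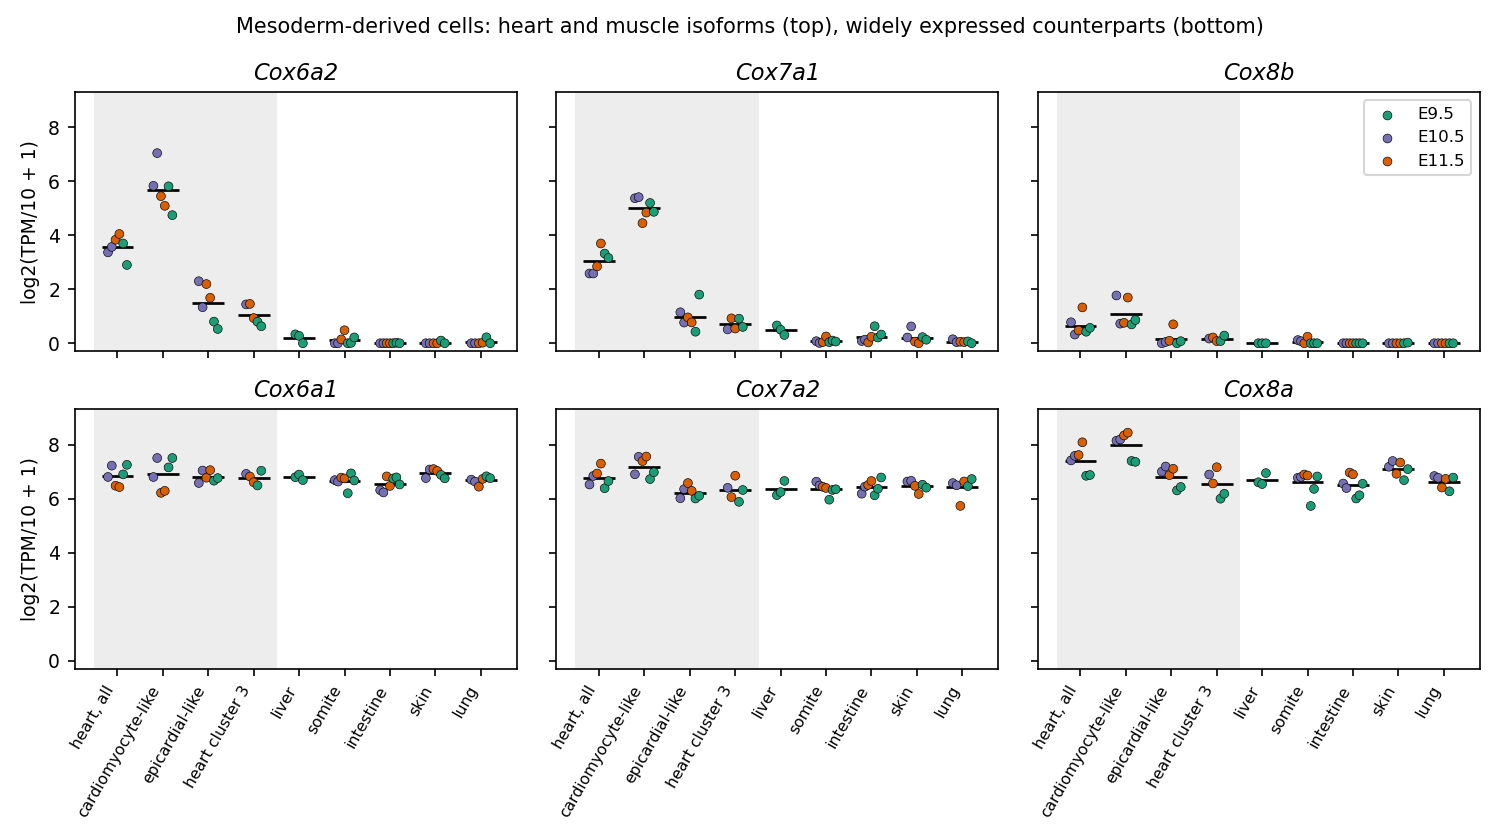
Levels, as log2(TPM/10 + 1), of the heart and muscle forms (top) and their widely expressed counterparts (bottom) in mesoderm-derived cells. Each point is the mean of an embryo, coloured by day, and the bar is their mean; the shaded columns are heart, all cells and then its 3 clusters. *Cox6a2* averaged 5.66 in the cardiomyocyte-like cells and at most 0.48 in any embryo of the other organs, while *Cox6a1* differed little between sets.

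Markers of heart muscle were also highest in heart. Among the other organs they did not follow the members. Mesoderm-derived cells of skin had the largest share of UMIs in the members there (4.72%) and the smallest in these markers (0.00186%). The summed share of 10 cardiomyocyte markers was 2.63% ± 0.468 of the UMIs in heart mesoderm-derived cells (range 1.92 to 3.34), 0.422% in those of liver and at most 0.0906% in the means of the other organs, and all 10 had a mean level of at least 1 in heart. The summed level of 4 macrophage markers in heart was 0.39. Hemoglobin genes took 0.145% of the UMIs of heart mesoderm-derived cells and 0.0764% of those of all mesoderm-derived cells. The part of these cells in the differences was not tested in the comparison, but the heart cells were also split.

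The 236 heart mesoderm-derived cells were clustered on genes that excluded the members, and the clusters are described with no test. Cluster 1, 125 cells from all 6 embryos led by *Myl3*, *Chchd10*, *Actc1* and *Myl4*, was cardiomyocyte-like. Cluster 2, 59 cells led by *Dcn*, *Upk3b* and *Ptn*, was epicardial-like, and cluster 3, 52 cells led by *Hapln1*, *Pdlim3* and *Ramp2*, was left unnamed. The median depth was 202240, 476320 and 277140 UMIs per cell in that order.

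The members held 8.45% ± 1.26 of the UMIs in the cardiomyocyte-like cells (range 6.80 to 9.83 over embryos), 3.92% ± 0.271 in the epicardial-like cells and 4.13% ± 0.397 in cluster 3. The first value lay above every embryo of the other organs, and the other 2 lay within the range of mesoderm-derived cells elsewhere. Against the other organs of the same embryo, 79 of 83 members were on average higher in the cardiomyocyte-like cells, 58 of them in every embryo, with a median difference of 0.87 beside −0.097 for all genes. In the epicardial-like cells 27 of 83 were higher (median −0.063, all genes −0.0060), and in cluster 3 it was 24 of 83 (median −0.10, all genes −0.017). The share of all genes that were higher, on average or in every embryo, is not given beside these counts.

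In the cardiomyocyte-like cells *Cox6a2* had levels of 5.81 and 4.74 at E9.5, 5.83 and 7.04 at E10.5 and 5.44 and 5.09 at E11.5. It made up 30.9% ± 7.84 of its pair, and *Cox7a1*, at a mean level of 5.02, made up 19.8% ± 4.93 of its own. *Cox8b* averaged 1.08. In differences from the other organs, *Cox6a2* (5.59) and *Cox7a1* (4.82) were followed by *Uqcrfs1* (1.65), *Ndufv3* (1.55), *Atp5g1* (1.53), *Atp5g3* (1.42), *Cox7b* (1.40) and *Cox5a* (1.36). *Cox6b2* (−0.54), *Ndufa7* (−0.31), *Ndufa4l2* and *Cox7b2* lay below the other organs. *Cox6a2* also had a UMI in 96.6% of the epicardial-like cells and 88.5% of cluster 3, at mean levels of 1.47 and 1.05. In these clusters *Myl7* stood at 8.05 and 5.04, beside 10.29 in the cardiomyocyte-like cells. *Actc1* stood at 5.23 and 5.18 beside 10.55, and *Actn2* at 0.72 and 0.86 beside 4.67. *Ryr2*, the lowest of the cardiomyocyte markers, stood at 0.16 and 0.47 beside 1.93. RNA of such markers was measured there too. Whether these cells made it, and whether *Cox6a2* came with it, was not tested. In heart hematopoietic cells *Cox6a2* was at 2.37 (range 2.13 to 2.59, n = 3 embryos).

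**Figure D4:**
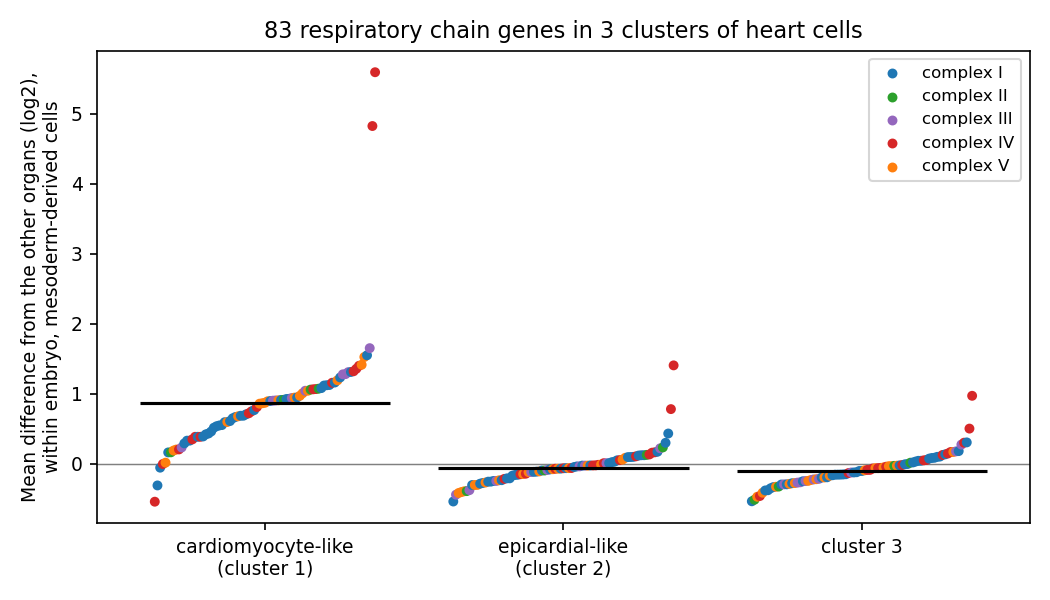
Mean difference, on the log2 scale and within embryo, of each of 83 respiratory chain genes between a cluster of heart mesoderm-derived cells and the mesoderm-derived cells of the other organs. Points are genes coloured by complex, sorted within each cluster, and the bar is the median: 0.87 in the cardiomyocyte-like cells, −0.063 in the epicardial-like cells and −0.10 in cluster 3.

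The genes whose levels most resembled *Cox6a2* over 17 sets of organ and major group were *Pln* (Pearson r = 0.996), *Myl2* (0.994), *Myh7* (0.993), *Nkx2-5* (0.992) and *5430431A17Rik* (0.991). For *Cox7a1* they were *Trdn* (0.969), *Tcap* (0.966), *Pln* (0.965), *Fsd2* (0.964) and *Casq1* (0.962). These values describe the sets, which share embryos and libraries, and are the highest among 9272 genes compared. Since *Cox6a2* was high in heart sets alone, any gene largely limited to heart reaches a high r with it.

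Over the major groups, mesoderm-derived cells had the largest share of UMIs in the members, 4.91% ± 0.479 (n = 7), followed by hematopoietic cells with 4.67% ± 0.344 (n = 7), neuronal cells with 4.08% ± 0.219 (n = 6) and epithelial cells with 4.04% ± 0.178 (n = 7). The ranges of the first 2 groups overlapped (4.38 to 5.67 and 4.10 to 5.03), as did those of the last 2. That of hematopoietic cells also overlapped with those of neuronal and epithelial cells, which each reached 4.26. The rank of the mesoderm-derived cells came with the heart: without heart cells the share was 4.30% ± 0.180 (n = 7) in mesoderm-derived and 4.66% ± 0.379 (n = 6) in hematopoietic cells. Each group was then compared with the mean of the other 3 by limma over 17425 genes.

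In hematopoietic cells 32 of 83 members were higher and 6 lower, against 17% of all genes higher and 33.2% lower. The median difference was 0.12 for the members and −0.034 for all genes. Hemoglobin genes took 5.54% ± 3.79 of the UMIs of these cells (range 1.18 to 10.8). The split depended on the scaling: 65 were higher and 1 lower by DESeq2 and 68 and 1 by edgeR, where the median of all genes moved to −0.36 and −0.30. The shares of all genes called by these tools are not given here. Complex III had 7 of 9 members higher and 0 lower, complex I 15 higher and 3 lower, complex IV 5 and 1, complex V 4 and 1 and complex II 1 and 1.

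*Cox6b2*, known as the testis form of subunit VIb, was the member that marked hematopoietic cells most. Its level there ranged from 2.12 to 4.30 over the 7 embryos with a mean of 3.31, beside 1.56 in epithelial, 1.41 in mesoderm-derived and 0.84 in neuronal cells. It was higher by 2.04 (SE 0.24, adjusted p = 9.969e-08) and in 7 of 7 embryos, and no other called member differed by at least 1, against 6.85% of all genes tested. The mean was similar in hematopoietic cells of heart (3.599), liver (3.42), hindbrain (3.29) and forebrain (3.01). Epithelial cells of skin also had it, at 3.25 (range 2.90 to 3.67, n = 6), whereas those of intestine, liver and lung averaged 0.83 to 1.43. It had a UMI in 93.5% of hematopoietic and 47.4% of neuronal cells and made up 10.3% ± 3.24 of the UMIs of *Cox6b1* and *Cox6b2* in the former.

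*Ndufs7* of complex I was higher in hematopoietic cells by 0.81 (SE 0.12, adjusted p = 2.565e-06), *Atp5g1* by 0.79, *Ndufb10* by 0.76, *Ndufa9* by 0.74, *Uqcrq* by 0.72, *Ndufa8* by 0.63 and *Uqcr10* by 0.57. Lower members included *Ndufs4* (−0.45, adjusted p = 0.01672), *Sdhc* (−0.41), *Atp5sl* (−0.41), *Ndufa7* (−0.40) and *Cox7a2l* (−0.33), a factor of respiratory supercomplexes. *Cox6a1* and *Cox8a* were also higher, by 0.55 and 0.40.

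In neuronal cells 20 of 83 members were lower and 1 was higher, against 12.5% of all genes lower and 18.6% higher, with a median of −0.14 beside −0.0045 for all genes. The increase was *Cox5a* (0.28, adjusted p = 0.04594). *Cox6b2* was lower by 1.25 on the log2 scale (−1.25, SE 0.25, adjusted p = 0.0003496), the only member past a difference of 1 against 3.31% of all genes. It was followed by *Sdhd* (−0.57), a membrane anchor of complex II, *Ndufs7* (−0.56), *Ndufa5* (−0.56), *Uqcr10* (−0.52), *Atp5g1* (−0.50), *Ndufb2* (−0.45) and *Uqcrb* (−0.43). *Cox4i2*, a form of subunit IV known from lung and from low oxygen, was lower by 0.35 (−0.35, adjusted p = 0.008732). Lower members numbered 7 in complex I, 1 in complex II, 3 in complex III, 4 in complex IV and 5 in complex V. Without E11.5 embryo 2 the number called was 12.

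In epithelial cells 23 members were lower and 3 higher, against 6.92% of all genes lower and 17.1% higher, with a median of −0.19 beside 0.0035 for all genes. None differed by 1 or more, against 2.27% of all genes. *Uqcrq* was lower by 0.75 (−0.75, SE 0.091, adjusted p = 3.958e-07) and *Cyc1*, which encodes cytochrome c1, by 0.59 (−0.59, adjusted p = 0.0001386). Further decreases were those of *Ndufb10* (−0.52), *Atp5g1* (−0.51), *Ndufs8* (−0.49), *Ndufv1* (−0.46), *Atp5f1* (−0.45), *Ndufa9* (−0.43), *Cox6a1* (−0.42), *Sdhb* (−0.36) and *Cox7a2* (−0.29). The increases were *Ndufa7* (0.44), *Atp5sl* (0.44) and *Ndufs6* (0.28). Since each group was set against the other 3, a gene high in 1 group lowered the rest, and the 4 comparisons share their samples.

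In mesoderm-derived cells 17 members were higher and 1 lower, against 10.4% of all genes higher and 5.9% lower, with a median of 0.15 beside −0.0084 for all genes. None reached a difference of 1, against 1.52% of all genes. The largest was that of *Cox6a2* (0.91, SE 0.19, adjusted p = 0.001232), and 6 of 7 embryos showed it. The exception, E9.5 embryo 3, has no heart cells, and *Cox6a2* stood at 0.055 there. *Cox7a1* (0.64) was higher in the same number of embryos. *Atp5o* (0.43, adjusted p = 0.0002273), *Sdhb* (0.38), *Atp5j* (0.36), *Uqcrh* (0.35), *Atp5k* (0.33), *Ndufs8* (0.33), *Ndufa4* (0.30) and *Cox8b* (0.19) were higher as well, and *Ndufa6* was lower (−0.34). Without heart cells, an alternative chosen after seeing the data, 6 members were called, 5 higher and 1 lower, and the median was 0.024. *Cox6a2* (0.046), *Cox7a1* (−0.10) and *Cox8b* (0.024) were then not called. By DESeq2 7 members were called and by edgeR 9, and with the embryo as a block it was 29, 28 of them higher. Without E11.5 embryo 2 the number called was 8, without E10.5 embryo 2 or E11.5 embryo 1 it was 10, and without E10.5 embryo 1 it was 11.

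**Figure D5:**
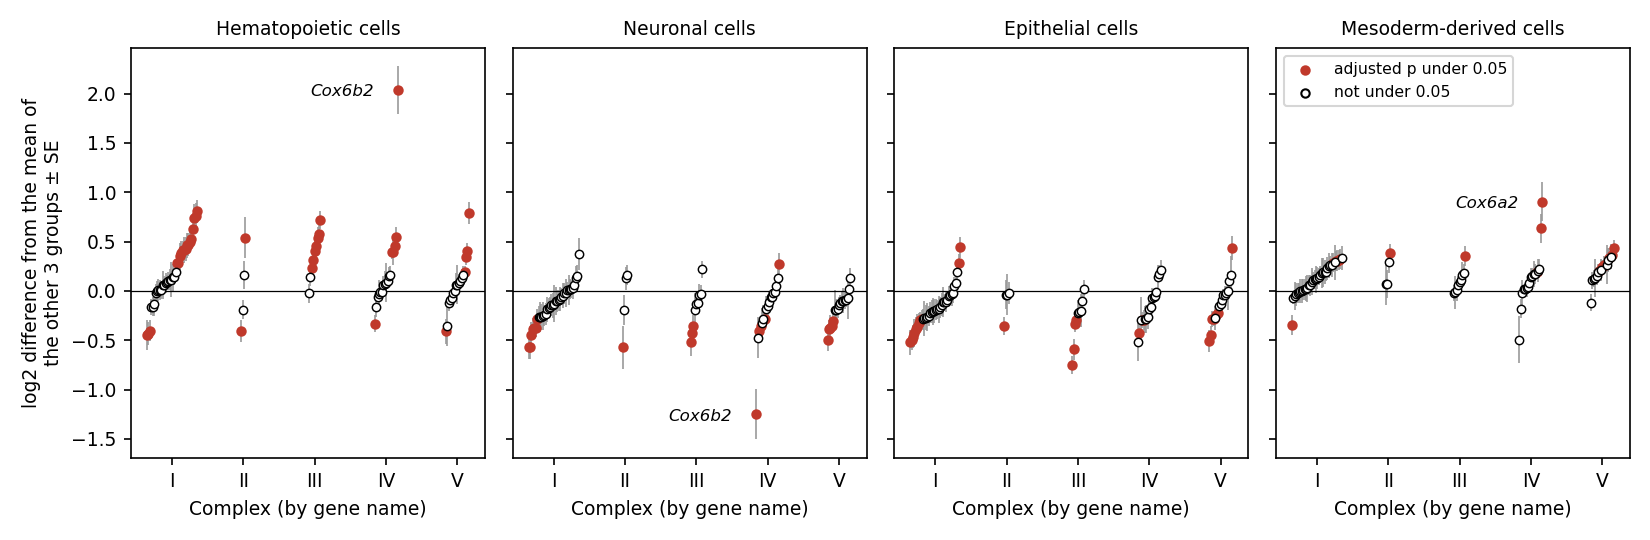
Log2 difference ± SE of each of 83 respiratory chain genes between a major group and the mean of the other 3, grouped by complex on the x axis, for hematopoietic, neuronal, epithelial and mesoderm-derived cells. Filled points have an adjusted p under 0.05: *Cox6b2* stood 2.04 above in hematopoietic and 1.25 below in neuronal cells, and most called members lay below 0 in neuronal and epithelial cells.

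From E9.5 to E11.5 the share of UMIs in the members went from 4.60% to 4.71% and 5.58% in mesoderm-derived cells and from 3.94% to 3.96% and 4.25% in epithelial cells, as means per day. Heart cells were 21.6%, 29.7% and 35.8% of the mesoderm-derived cells of these days, and without them the means were 4.28%, 4.18% and 4.43%. The share was 3.91%, 4.20% and 4.15% in neuronal cells and 4.73%, 4.22% and 5.03% in hematopoietic cells. Slopes per day were fitted for each gene within each group.

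In heart mesoderm-derived cells 9 members rose and 1 fell with the day, against 0.551% of all genes rising and 5.5% falling. The median slope was 0.15 per day for the members and −0.075 for all genes. The mix of heart cells also differed between embryos. Cardiomyocyte-like cells were 26 of 45 and 25 of 45 at E9.5 and 14 of 35 and 17 of 43 at E10.5. At E11.5 they were 19 of 35 and 24 of 33. The part of this mix in the slopes and in the heart shares by day was not tested. *Atp5e*, the epsilon subunit of the ATP synthase, stood at 6.02 and 5.44 at E9.5, 6.64 and 6.53 at E10.5 and 6.84 and 7.40 at E11.5, without overlap between the days. Its slope was 0.70 per day (SE 0.15, adjusted p = 0.007374 by limma). *Cox8a* went from 6.84 and 6.87 over 7.41 and 7.58 to 7.61 and 8.08 (slope 0.49, adjusted p = 0.02437), again without overlap. *Ndufc1* of complex I (0.53), *Cox7b* (0.50), *Cox7c* (0.45), *Uqcrb* (0.44), *Ndufb4* (0.41), *Uqcrh* (0.38) and *Cox6b1* also rose. The member that fell, *Uqcrc1*, which encodes a core protein of complex III, stood at 5.50 and 5.99, then 4.57 and 4.98, then 4.27 and 4.72 (slope −0.62, adjusted p = 0.0387). A slope of at least 0.5 per day in size was reached by 4 of the called members, against 3.97% of all genes.

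The muscle forms were not among these: the slope of *Cox6a2* was 0.32 per day (adjusted p = 0.06203), that of *Cox8b* 0.20 (adjusted p = 0.0994) and that of *Cox7a1* 0.015. The calls rested on the E9.5 embryos and on single embryos. Within the HiSeq 4000 embryos, which span E10.5 and E11.5 in heart, 1 member was called. Without E9.5 embryo 2, or without E11.5 embryo 2, 0 were called, without E11.5 embryo 1 it was 4, without E10.5 embryo 1 it was 5 and without E10.5 embryo 2 it was 6. With cells thinned to 50000 UMIs 4 were called, and by edgeR 0. The heart slope minus the mean slope of intestine, lung, skin and somite was called by limma for 0 members, against 2.1% of all genes, with 18 members at an unadjusted p under 0.05 and 0 calls by DESeq2 and edgeR. A slope that is particular to heart was therefore not detected.

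Over the major groups, slopes were called by limma for 0 members in hematopoietic cells (15 at an unadjusted p under 0.05, 0 by edgeR, 1 by DESeq2), against 1.89% of all genes. In neuronal cells 9 fell and 1 rose, against 11.6% of all genes falling and 4.3% rising, near the background. *Sdha*, the flavoprotein of complex II, fell most (−0.58 per day, adjusted p = 0.0004708), followed by *Ndufa10* (−0.51), *Uqcrc1* (−0.50), *Ndufs1* (−0.47), *Uqcr10* (−0.43), *Ndufs7* (−0.33), *Atp5g1* (−0.32) and *Cyc1* (−0.31). A fall of at least 0.5 per day was seen in 3 of them, against 7.21% of all genes past that size. *Atp5e* rose there (0.41, adjusted p = 0.04445), but its slope was −0.19 within the HiSeq 4000 embryos. In epithelial cells *Atp5e* (0.55), *Ndufb4* (0.29) and *Cox6c* (0.25) rose and none fell, against 2.3% and 2.75% of all genes. In mesoderm-derived cells *Cox8b* alone rose (0.12, adjusted p = 0.03124) and none fell, against 0.608% and 0.666% of all genes, and 0 members were called without heart cells. Within the HiSeq 4000 embryos 2 members were called in neuronal, 0 in epithelial and 3 in mesoderm-derived cells.

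Other genes of energy metabolism were followed as lists in the heart comparison over all cells, where 8.73% of all genes were higher and 11.2% lower. Of 16 genes of the tricarboxylic acid cycle and pyruvate dehydrogenase, 5 were higher in heart and 0 lower (median 0.40), led by *Idh3a*, which encodes a subunit of isocitrate dehydrogenase (1.16, SE 0.21). Of 15 genes of fatty acid oxidation, 7 were higher and 0 lower (median 0.39), among them the acyl-CoA dehydrogenases *Acadl* (1.39) and *Acadm* (1.16) and the thiolase *Acaa2* (1.19). Of 15 genes of glycolysis, 4 were higher and 0 lower (median 0.54), among them *Hk1* (1.27) and *Pfkp* (1.24). Of 11 carriers and energy transfer genes, 7 were higher and 0 lower (median 0.51), including the adenine nucleotide carrier *Slc25a4* (1.42) and *Ckb* (1.66), the brain-type creatine kinase.

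Of 27 factors that assemble the complexes, 1 was higher and 2 were lower (median −0.022), counts below those shares of all genes. No difference between lists was tested. These were *Cox17*, a copper chaperone of complex IV (0.93), *Ndufaf2* (−0.82), an assembly factor of complex I, and *Sdhaf1* (−0.57). Of 12 regulators of mitochondrial genes, 6 were higher and 1 lower, with the coactivator *Ppargc1a* up by 0.91 and the transcription factor *Nrf1* lower (−0.64). In mesoderm-derived cells, where 8.45% of all genes were higher and 10.2% lower, the counts, higher and lower, were 6 and 0 of 16 for the tricarboxylic acid cycle, 6 and 0 of 14 for fatty acid oxidation, 6 and 0 of 15 for glycolysis, 9 and 0 of 11 for carriers, 2 and 1 of 27 for assembly and 6 and 1 of 12 for regulators.

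Members share little by position, lying on 19 chromosomes. Transcripts of 35 members share a stretch of 100 bases or more, at 95% identity or above, with those of another gene. Counts from uniquely mapped reads are uncertain within such a stretch. For some members, such as *Cox4i1* with *Emc8*, the other gene is an overlapping neighbour on the opposite strand and not a copy. Of the 34 tested members with such a stretch, 23 were higher in heart (median 0.43), and of the 49 without, 28 (median 0.37). Exons of 25 members overlap a gene on the opposite strand, whose reads cannot be told apart where counting ignored strand. For *Cox6a2* this gene is *Itgad*, which had 20 UMIs in 4 cells.

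Promoters, the 250 bases before the RefSeq start on GRCm38.p6, were at hand for 69 members, and motifs were searched on both strands. The NRF1 motif, GCGC on either side of any 2 bases, was found in 20.3% of these members and in 4.98% of all 32851 promoters. The core site of ETS factors, CCGGAAG, was found in 17.4% of members and 6.91% of all promoters. The site of estrogen-related receptors, AAGGTCA, was in 7.25% and 4.08%. The YY1 site, AAGATGGC, was in 2.90% and 1.56%. The remaining motifs were as common or nearly so: the GC box, GGGCGG, in 36.2% and 32.7%, the E-box, CANNTG, in 63.8% and 66.2%. The GATA site, AGATAA, was in 8.70% and 9.99%. The TATA box, TATAAA, was in 8.70% and 12.4%. A match is a string of letters and not a measured site, and the motifs can overlap each other. Member promoters had a median of 56% GC and 14 CpG, beside 52.4% and 6 over all promoters. The NRF1, ETS and GC box strings contain CG, and the part of base composition in the match rates was not tested. Members were counted by gene, though they have 75 promoter entries, and all promoters by entry.

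The promoters of a muscle form and of a widely expressed form are shown to set them side by side. That of *Cox7a1* (chr7:30183921-30184170, plus strand, 51.2% GC, 4 CpG) has its E-box and GATA matches in capitals. That of *Cox6a1* (chr5:115348959-115349208, minus strand, 62.8% GC, 26 CpG) has 2 NRF1 matches and an ETS match in capitals, the last on the other strand.
Cox7a1 promoter: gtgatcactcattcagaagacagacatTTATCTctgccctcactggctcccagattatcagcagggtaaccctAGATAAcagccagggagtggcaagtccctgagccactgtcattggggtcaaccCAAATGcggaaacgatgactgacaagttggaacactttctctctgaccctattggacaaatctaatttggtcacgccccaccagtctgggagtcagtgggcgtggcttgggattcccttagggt
Cox6a1 promoter: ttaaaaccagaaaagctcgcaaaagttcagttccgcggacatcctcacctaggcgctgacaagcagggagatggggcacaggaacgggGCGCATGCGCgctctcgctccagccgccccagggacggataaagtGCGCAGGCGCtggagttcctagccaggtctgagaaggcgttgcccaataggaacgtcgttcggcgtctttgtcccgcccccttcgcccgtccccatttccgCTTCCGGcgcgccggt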

How the data were processed

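Single cells were lysed, and their RNA was reverse transcribed with primers carrying a barcode per cell and a UMI per molecule. Cells were then pooled and 3′ fragments enriched (modified STRT protocol in the paper, whereas the sample labels name another). The authors aligned reads to mm10 with TopHat 2.0.12, counted uniquely mapped reads per gene with htseq-count, removed duplicate UMIs and deposited the values, named TPM, which are CPM: UMIs per 1000000 UMIs of the cell, to 2 decimals. The version of HTSeq and the annotation were not given in the sources used here. Whole counts were recovered from the deposited values, and 100% came out whole within 0.05 UMIs. Doublets were not called, since cells were picked by hand.

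Cells of an embryo were averaged on log2(TPM/10 + 1) where at least 3 were kept, and genes at 1 or more in at least 3 cells entered limma (version 3.58.1, R 4.3.3, eBayes with trend, Benjamini-Hochberg adjustment over all genes). edgeR 4.0.16 and DESeq2 1.42.0 on summed counts were alternatives. Major groups and the list of kept cells were the study's. Heart cells were clustered on 1000 genes and 10 principal components. No per-sample column was left unmapped. The 83 members found in GENCODE were matched by symbol, and transcripts were compared with blastn 2.17.0. The fits were tested on simulated data of the heart mesoderm-derived comparison (15803 genes, 200 doubled), where limma recovered 99.5%. A slope of 1 per day was recovered for 86.0% and a slope difference of that size for 72.0%. By edgeR the rates were 100%, 97.5% and 91.0% in that order. The median member difference in that comparison was 0.37, and called heart slopes were at most 0.70 in size. Slope differences of the members ran from −0.48 to 0.48. Recovery at such smaller sizes was not simulated. Only genes above a set mean level were changed in the simulation. Its spread between embryos was set and not estimated from the data, and the mix of heart cells was not varied. The rates therefore hold for these settings and not for the real fits.

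The members and lists were chosen with earlier results of these data known. In each comparison up to 8 increases and 8 decreases past the threshold were named, with the isoform lists and the leading member of each complex; 1 such result is not reported here. All organs of an embryo come from 1 animal, so samples are paired by embryo. The deviations of samples of 1 embryo correlated from −0.044 to 0.681 over 39 pairs of major groups and from −0.175 to 0.672 over 165 pairs of organs. The main fits had no block.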

Additional observations from a re-analysis of the deposited data

Results flagged for a closer look

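In groups of 6 or 7 embryos, 19 of 149 sets of member levels or shares had 1 embryo far from the rest by Dixon's criterion. Chance gives about 1 in 20 for independent, normally distributed values. Some flagged sets stood at 0 in every other embryo and some share cells, so that rate cannot be set against this count. In heart, *Ndufb2* stood at 6.109 in E11.5 embryo 2 and at 5.14 to 5.49 in the others (6.157 against 5.25 to 5.57 in mesoderm-derived cells), and *Uqcrq* at 6.69 in mesoderm-derived cells of the same embryo against 6.04 to 6.27. *Cox7b2* stood at 0.0375 in heart of E9.5 embryo 1 (0.04 in mesoderm-derived cells) and at 0 in the others.

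In hematopoietic cells of E9.5 embryo 1, *Cox6a2* stood at 2.126 against 0.098 to 0.24 elsewhere and *Cox7a1* at 1.244 against 0.15 to 0.59. This embryo has 3 hematopoietic cells, all from heart. *Cox8b* was above 0 in 1 embryo each of hematopoietic (0.0083), epithelial (0.0107) and neuronal cells (0.0069).

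In neuronal cells of E9.5 embryo 1, *Cox6a1* stood at 6.627 against 6.92 to 7.03 and *Cox7a2* at 5.998 against 6.37 to 6.58. In epithelial cells, *Ndufv3* stood at 5.135 in E9.5 embryo 1 against 4.37 to 4.60, *Cox4i2* at 1.187 in E9.5 embryo 3 against 0.21 to 0.50, *Ndufa4l2* at 0.2421 in that embryo against 0 to 0.10, and *Cox7b2* at 0.0034 in E9.5 embryo 2 against 0. In mesoderm-derived cells *Ndufa4l2* stood at 0.2371 in E9.5 embryo 1 against 0.015 to 0.078. The members held 3.451% of the UMIs of somite cells in E9.5 embryo 1, over all cells and over mesoderm-derived cells, against 4.00% to 4.39% in the other embryos.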

How the results depend on the processing

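The direction of the heart differences held under every alternative tried: with 0 members lower, 48 to 66 were called higher over all cells and 40 to 63 in mesoderm-derived cells. The range was 36 to 52 and 29 to 43 when an embryo was left out, lowest without E11.5 embryo 2 in both. By DESeq2 and edgeR, members called numbered 66 and 69 in place of 38 in hematopoietic cells, 34 and 45 in place of 21 in neuronal cells, 40 and 43 in place of 26 in epithelial cells and 7 and 9 in place of 18 in mesoderm-derived cells. Leaving out an embryo gave 33 to 36, 12 to 22, 18 to 25 and 8 to 18. Without heart cells, an alternative chosen after seeing the data, the counts were 37, 19, 22 and 6, and the difference of *Cox7a1* in mesoderm-derived cells reversed to −0.10. Counts under alternatives are given without the share of all genes called in the same setting. They show how the calls shifted and not an excess over all genes.

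Slope counts were less stable. In hematopoietic cells, 0 became 1 by DESeq2, in HiSeq 4000 embryos and with hemoglobin genes left out of the cell totals, and 0 to 6 without an embryo (6 without E9.5 embryo 3). In neuronal cells, 10 became 5 by DESeq2, 1 by edgeR, 2 in HiSeq 4000 embryos, 6 in thinned cells and 3 to 10 without an embryo (3 without E9.5 embryo 2, E11.5 embryo 1 or E11.5 embryo 2, and 5 without E10.5 embryo 2). In epithelial cells, 3 became 1 by DESeq2, 0 by edgeR and in HiSeq 4000 embryos and 0 to 5 without an embryo (0 without E9.5 embryo 1 or E11.5 embryo 1, 5 without E9.5 embryo 3 and 1 without E9.5 embryo 2, E10.5 embryo 2 or E11.5 embryo 2). In mesoderm-derived cells, 1 became 0 by DESeq2, by edgeR and without heart cells, 3 in HiSeq 4000 embryos and 0 to 2 without an embryo (2 without E9.5 embryo 1 or 3, 1 without E11.5 embryo 1 and 0 without any of the others). In heart, 10 became 1 in HiSeq 4000 embryos, 4 in thinned cells, 0 by edgeR and 0 to 9 without an embryo (0 without E9.5 embryo 2 or E11.5 embryo 2). The slope difference went from 0 to 1 in HiSeq 4000 embryos and to 0 to 1 without an embryo. The slope of *Atp5e* in neuronal cells reversed to −0.19 in HiSeq 4000 embryos. Which part of each alternative caused these shifts was not tested.

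With the embryo as a replicate block, 29 members were called in mesoderm-derived cells in place of 18, and the counts were 60 and 47 in the heart comparisons, 44 in hematopoietic, 28 in neuronal and 38 in epithelial cells. The block left the slope counts at 0, 10, 4, 1, 9 and 0. Counting both copies of the repeated cells, an alternative chosen after seeing the data, gave 51 and 43 in heart. Thinning left out 70 cells below 50000 UMIs.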

Other observations

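Of 27 assembly factors, 13 were called higher in hematopoietic cells and 0 lower (median 0.25), against 17% of all genes higher and 33.2% lower. Counts of higher genes in these cells depend on the scaling: the respiratory chain members called higher went from 32 to 65 by DESeq2 and 68 by edgeR, and the lists were not counted that way. *Cox17* was higher by 2.11 on the log2 scale (SE 0.13, adjusted p = 1.133e-12 by limma), followed by *Atpaf2* (0.86), an assembly factor of complex V, and *Coa5* (0.86), one of complex IV. In neuronal cells *Cox17* was lower (−0.98), while *Cox19* (0.60) and *Sdhaf1* (0.56) were higher, and of the 27 factors 2 were higher and 5 lower, against 18.6% and 12.5% of all genes. Of 16 genes of the tricarboxylic acid cycle and pyruvate dehydrogenase, 11 were higher in hematopoietic cells and 0 lower, with *Pdha1*, a subunit of pyruvate dehydrogenase, at 1.09 and *Idh3a* at 0.91, whereas in epithelial cells 6 were lower and 0 higher, against 6.92% and 17.1% of all genes.

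Some genes of these lists differed between the groups far more than the respiratory chain members did. *Ldhb*, a lactate dehydrogenase, was lower in hematopoietic cells (−4.09, adjusted p = 5.483e-17) and higher in epithelial (1.89), neuronal (1.15) and mesoderm-derived cells (1.05). Each group was set against the mean of the others, so a low level in a group by itself raises the rest, and the reverse. The increases of *Ldhb* are therefore not separate from its decrease in hematopoietic cells, and opposite signs of the genes below are tied in the same way. *Hk1* was higher in hematopoietic cells (1.71) and lower in epithelial cells (−1.03). *Ckb* was higher in neuronal cells (4.25, adjusted p = 2.948e-10), and the muscle-type nucleotide carrier *Slc25a4* was higher in mesoderm-derived (1.39) and lower in hematopoietic cells (−1.93), where *Slc25a5* was higher (1.01). Of 15 fatty acid oxidation genes, 9 were called lower in neuronal cells and 0 higher (median −0.53), against 12.5% and 18.6% of all genes, with *Acaa2* at −1.44, *Hadh* at −1.16 and *Acadl* at −1.16.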
